A study of Mus musculus with 19 samples.

Results

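Transcripts of 10 steroid hormone metabolizing enzymes were followed in mouse liver with and without RALY, an RNA-binding protein of the heterogeneous nuclear ribonucleoprotein family. The genes were taken by symbol, and all 10 were found among the 24054 gene symbols of the deposited table. They are the hydroxysteroid dehydrogenases Hsd3b2, Hsd3b3, Hsd3b5, Hsd11b1, Hsd17b2, Hsd17b6, Hsd17b11 and Hsd17b13, the 5-alpha reductase Srd5a1 and the aldo-keto reductase Akr1c6. They are defined by symbol and not by a measured value, but were chosen with earlier results of these data known. The deposited table holds liver RNA-seq of 3 L-RalyKO and 3 control mice. This is fewer per group than the study describes for its RNA-seq.

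All mice had a C57BL/6 background, carried floxed alleles of Raly with LoxP sites around exons 3 and 4, and were fed chow. According to the study's methods, mice were male unless stated otherwise, and their age was not given for these samples. L-RalyKO mice received an adeno-associated virus with Cre, and control mice received the virus with GFP. Tissue was taken 4 weeks later. Controls are called wild type in the labels but are floxed as well. The TBG promoter drives Cre in hepatocytes, so other liver cells keep Raly. Each library is labelled as a separate replicate, and p values measure the spread between these mice.

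Steroid hormones reach the liver already made, and hepatocytes change them further. Dehydrogenases swap hydroxyl and keto groups on the steroid ring and so switch hormones between more and less active forms, while reductases remove double bonds before the steroid is conjugated and cleared. In mouse liver several of these enzymes differ between the sexes, a pattern set in large part by growth hormone secretion. The comparison of L-RalyKO with control asks which of these enzyme transcripts differ when hepatocyte RALY is lost. The groups also received different viral cargo, Cre or GFP, and its effect cannot be told apart from that of RALY loss.

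Sequencing depth ranged from 28302983 to 38052705 recovered reads per mouse, and 6838 of the symbols had no read in any mouse. Values are normalised read counts (CPM), that is reads scaled to the effective size of the library and not divided by gene length. In these libraries 3 reads amount to a value from 0.0789 to 0.105. Raly fell from 48.5 ± 1.67 (SD, n = 3) in control to 6.78 ± 0.546 in L-RalyKO (n = 3), a log2 fold change of -2.67 with an SE of 0.069 and a limma adjusted p of 6.92e-07. Xist was between 0.0351 and 0.378 and Ddx3y between 75.2 and 90.9 in the 6 mice, the pattern of male tissue. Among 11580 genes with a mean of at least 1, limma called 758 at an adjusted p under 0.05, of which 389 were higher and 369 lower in L-RalyKO. Scaling by total counts gave 324 higher and 469 lower. Control mouse 1 stood apart from the other controls, with a chi-square of counts per degree of freedom of 71.1 and 84.3 against them, while the other pairs of mice within a group had 12.6 to 27.4. Without it limma called 369 of the 11580 genes and 0 of the 10 enzymes, and the median log2 fold change of the 10 was 0.08. Hsd3b2 was then 0.23 (limma adjusted p = 0.205), Hsd3b5 0.08 and the log2 ratio of Hsd17b2 to Hsd17b12 differed by 0.19. In whole liver, fewer cells of a type and less RNA per cell cannot be told apart.

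None of the 10 enzyme transcripts passed the test at an adjusted p under 0.05. The background in the same limma fit was 6.55% of all genes tested. At an unadjusted p under 0.05, 3 of the 10 differed, against 22.7% of all genes. Hsd3b2 and Srd5a1 were the higher ones in L-RalyKO and Hsd11b1 the lower one. Groups did not overlap for 2 of the 10, Hsd3b2 and Hsd11b1, against 28.1% of all genes. With edgeR 0 of the 10 were called, against 6.31% of all genes, and with DESeq2 the 1 called was Hsd3b2, against 9.4%. The shares of the enzymes are thus at or below those of all genes, apart from the unadjusted count and the DESeq2 count, which lie slightly above them.

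The median log2 fold change of the 10 was 0.11, beside 0.00 for all genes tested, and the median size of the change was 0.12, beside 0.095. Of the 10, 9 had a positive value and Hsd11b1 a negative one, and 51.2% of all genes were positive. Under scaling by total counts 41.4% of all genes were positive and the enzymes remained at 9 positive values. The summed value of the 10 was between 2594 and 2723 in control and between 2801 and 2879 in L-RalyKO. This sum is weighted by abundance. Its largest part, Akr1c6, was 906 ± 60.7 in control and 988 ± 63.2 in L-RalyKO and was not called. Summed hepatocyte markers, 10 of 10 tested, were between 109714 and 120360 in control and between 122935 and 124097 in L-RalyKO with a median log2 fold change of 0.12. Their part in the result was not tested.

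**Figure D1:**
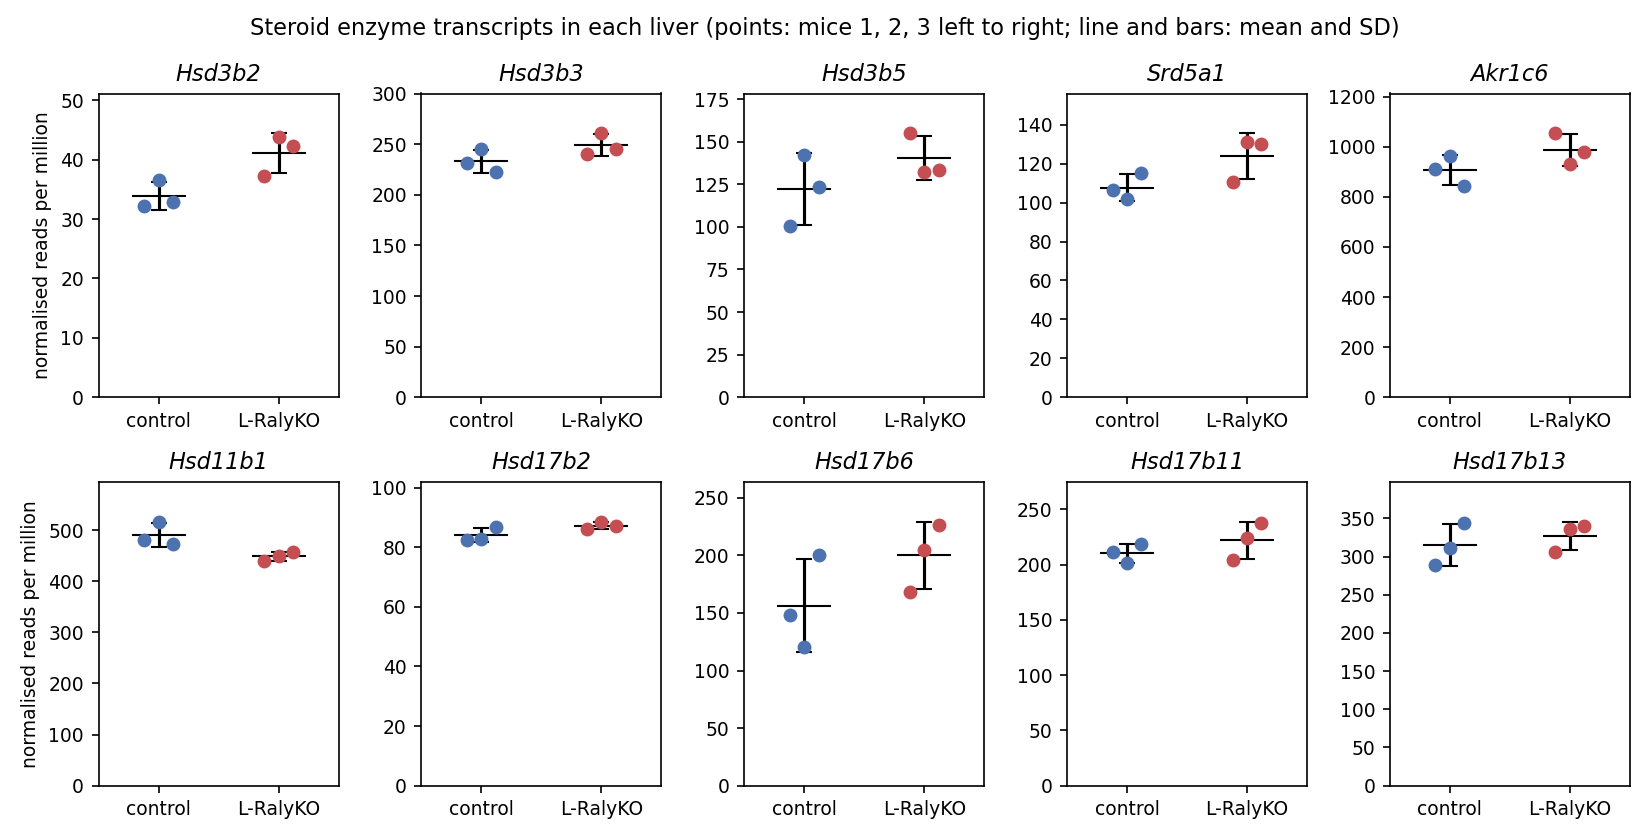
Normalised read counts (CPM) of each enzyme transcript (linear vertical axis from 0, points are mice 1, 2 and 3 from left to right, line and bars are mean and SD, n = 3 per group). Only Hsd3b2 and Hsd11b1 have groups that do not meet, and the control points of Hsd17b6 spread from 120 to 200.

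Per length, the enzymes spanned a wide range of levels. In control livers Akr1c6 stood at 490.2 ± 32.8 CPM per kilobase of exons (SD, n = 3), above Hsd11b1 at 181 ± 8.68. Hsd17b13 at 146 ± 12.9, Hsd3b3 at 128 ± 6.12, Hsd17b6 at 112 ± 29.0 and Hsd3b5 at 76.2 ± 13.1 followed. Each of these overlapped with its neighbour in the order, so their order is not fixed by these mice. Hsd17b2 at 65.7 ± 1.91 and Hsd17b11 at 64.5 ± 2.65 also overlapped with each other, and Hsd17b2 overlapped with Hsd3b5. Srd5a1 at 35.7 ± 2.25 and Hsd3b2 at 9.01 ± 0.633 were lowest and overlapped with no other enzyme.

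**Figure D2:**
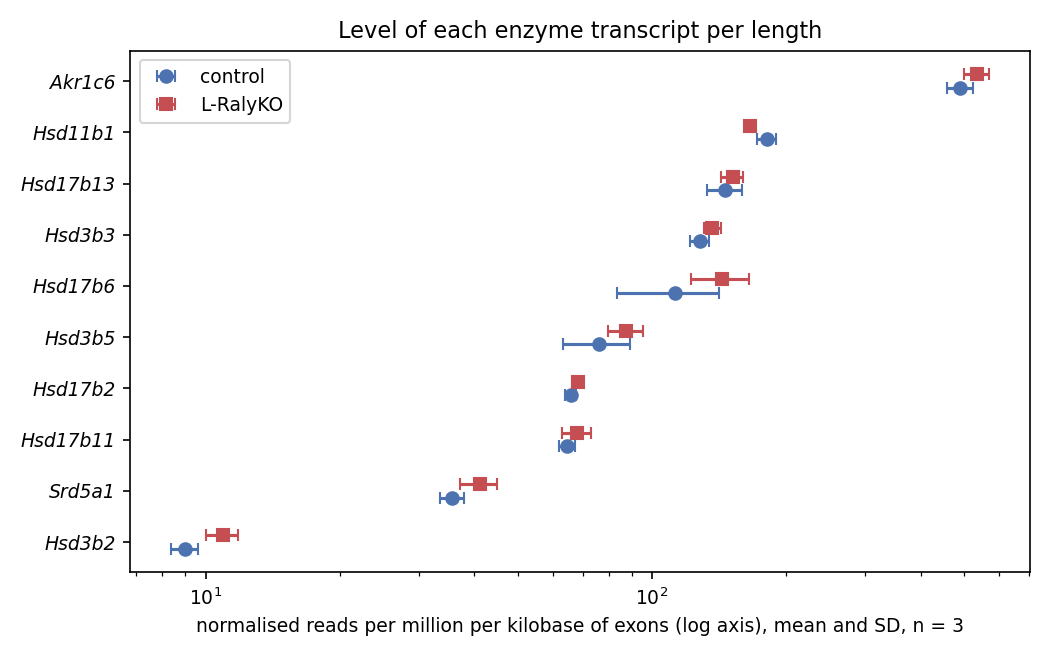
Level of each enzyme transcript in CPM per kilobase of exons (logarithmic horizontal axis), as mean and SD of 3 control mice (circles) and 3 L-RalyKO mice (squares). Akr1c6 is highest at 490.2 and Hsd3b2 lowest at 9.01 in control.

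Hsd3b2, Hsd3b3 and Hsd3b5 lie in a cluster of 6 Hsd3b genes on chromosome 3 (NCBIM37, minus strand, 98302998 to 98663717). The mouse enzymes encoded by Hsd3b2 and Hsd3b3 oxidize the 3-beta hydroxyl group of a steroid and shift its double bond, whereas the Hsd3b5 product acts mainly as a 3-keto steroid reductase and its transcript is known as male-biased in liver. Over the 6 mice the cluster gave 49591 reads for Hsd3b3, 26976 for Hsd3b5 and 7735 for Hsd3b2, but 2 for Hsd3b6 and 0 for both Hsd3b1 and Hsd3b4. Hsd3b1 and Hsd3b6, the forms known from gonad, adrenal and other tissues, were thus at or under the level of 3 reads in every mouse.

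The bases before the start sites of Hsd3b5 and Hsd3b3 are printed because they had the longest aligned stretch at such identity between 2 genes of the cluster. The sequences come from RefSeq (GRCm38.p6), were matched exactly and once in NCBIM37, and are given on the minus strand, 5′ to 3′, up to the last base before the start. Capitals mark the 154 bases that are identical in the best local alignment of both (75.5% of 204 aligned columns).
Hsd3b5, chr3:98449458-98449707: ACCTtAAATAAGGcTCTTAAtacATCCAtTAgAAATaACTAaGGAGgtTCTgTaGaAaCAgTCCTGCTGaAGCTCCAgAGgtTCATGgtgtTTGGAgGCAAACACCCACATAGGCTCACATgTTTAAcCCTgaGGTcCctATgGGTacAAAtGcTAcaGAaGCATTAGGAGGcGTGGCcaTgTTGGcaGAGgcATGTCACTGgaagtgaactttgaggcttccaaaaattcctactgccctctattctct
Hsd3b3, chr3:98567052-98567301: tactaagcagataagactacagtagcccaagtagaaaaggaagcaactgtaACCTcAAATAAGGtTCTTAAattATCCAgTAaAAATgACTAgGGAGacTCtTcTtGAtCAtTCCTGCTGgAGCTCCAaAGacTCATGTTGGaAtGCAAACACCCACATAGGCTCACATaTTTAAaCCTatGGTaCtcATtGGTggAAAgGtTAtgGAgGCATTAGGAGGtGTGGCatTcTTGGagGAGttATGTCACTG
The aligned window of Hsd3b2 against Hsd3b5 had 55.1% identity, and against Hsd3b3 60.0%. Other pairs of the cluster had similar values, such as Hsd3b6 against Hsd3b1 (55.2%) and Hsd3b3 against Hsd3b6 (60.2%). The values of Hsd3b2 thus do not stand out from those pairs. The RefSeq start of Hsd3b5 lies 15225 bp upstream of the start in GENCODE vM1. Hsd3b3 has a second RefSeq start 718 bp downstream whose upstream bases are 99.6% identical to those printed.

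Hsd3b2 (ENSMUSG00000063730.6, chr3:98513178-98528499) was measured at 32.1, 36.6 and 33.0 in control mice and at 37.3, 43.7 and 42.2 in L-RalyKO mice. Every L-RalyKO liver was above every control, by a narrow gap between 36.6 and 37.3. Its log2 fold change was 0.27 (SE 0.076, 95% interval 0.10 to 0.44), with a limma adjusted p of 0.0736 and an unadjusted p of 0.00676. The two-sided exact permutation p was 0.1, the smallest that 3 against 3 mice can give. Hsd3b2 is the enzyme whose call turned with the tool, as its adjusted p was 0.0378 in DESeq2.

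Hsd3b3 (ENSMUSG00000062410.7, chr3:98545399-98567051) was measured at 231, 245 and 223 in control and at 240, 261 and 245 in L-RalyKO. The groups overlapped, and the means, 233 ± 11.2 and 249 ± 10.8, lay close to each other. Its log2 fold change was 0.09 (SE 0.055, 95% interval -0.03 to 0.22, limma adjusted p = 0.352). For Hsd3b5 (ENSMUSG00000038092.5, chr3:98422559-98434232) the control values were 101, 142 and 124 and the L-RalyKO values 155, 132 and 134. The highest value was in an L-RalyKO mouse and the lowest in a control mouse, with overlap between them. Its log2 fold change was 0.21 (SE 0.12, 95% interval -0.06 to 0.48, limma adjusted p = 0.341). It ranged from 0.08 without control mouse 1 to 0.33 without control mouse 2. That of Hsd3b3 was lowest, at 0.06, without L-RalyKO mouse 2.

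Of all 50-base words in the transcripts of Hsd3b3, 23.5% occur in another gene, mostly Hsd3b2. For Hsd3b2 the share was 13.6%, and for Hsd3b5 18.1%, mostly with Hsd3b4, which had 0 reads. How the deposited counts treated reads that fit several genes was not stated, so these values are uncertain to that extent.

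Srd5a1 encodes a steroid 5-alpha reductase, the enzyme that turns testosterone into dihydrotestosterone and starts the breakdown of other keto steroids. It lies on chromosome 13 (ENSMUSG00000021594.9, chr13:69712327-69750320, minus strand). Values were 106, 102 and 115 in control and 111, 131 and 130.3 in L-RalyKO. L-RalyKO mouse 1 lay among the controls, and the other two L-RalyKO mice lay above them. The log2 fold change was 0.20 (SE 0.077, 95% interval 0.02 to 0.37), with a limma unadjusted p of 0.0302 and an adjusted p of 0.167. The exact permutation p was 0.2. Of its exon bases, 15.8% are shared with the overlapping transcript Gm17108 on the same strand.

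Akr1c6 encodes the mouse type 5 17-beta hydroxysteroid dehydrogenase, an aldo-keto reductase that makes testosterone from androstenedione. It lies in a cluster of Akr1c genes on chromosome 13 (ENSMUSG00000021210.9, chr13:4433552-4456776, plus strand). Values were 912, 964 and 843 in control and 1055, 929.6 and 978 in L-RalyKO. The groups overlapped at the top of the control range. The log2 fold change was 0.12 (SE 0.071, 95% interval -0.04 to 0.28, limma adjusted p = 0.343). It was 0.07 without control mouse 3 and 0.08 without L-RalyKO mouse 1. With between 27492 and 37186 reads per mouse it was the most deeply read of the 10, so the spread between mice and not counting limits its precision.

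Hsd11b1 encodes 11-beta hydroxysteroid dehydrogenase type 1, which regenerates active corticosterone from its 11-keto form in liver. It lies on chromosome 1 (ENSMUSG00000016194.8, chr1:195047824-195090248, minus strand). Values were 480, 517 and 473 in control and 440, 450 and 458 in L-RalyKO. All L-RalyKO values were below all control values, the only such case among the enzymes. The mean was 490 ± 23.5 in control and 449 ± 8.91 in L-RalyKO (SD, n = 3 each). The log2 fold change was -0.12 (SE 0.052, 95% interval -0.24 to -0.01), with a limma unadjusted p of 0.0409, an adjusted p of 0.199 and an exact permutation p of 0.1. Hsd11b1 was negative under every alternative run, between -0.16 and -0.09.

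The 17-beta enzymes include oxidizing and lipid droplet forms. Hsd17b2 encodes an enzyme that inactivates estradiol and testosterone by oxidation (ENSMUSG00000031844.7, chr8:120225846-120282929, plus strand). Values were 82.6, 82.9 and 87.0 in control and 86.2, 88.6 and 87.1 in L-RalyKO, with overlap. The spread relative to the mean was the smallest of the set in both groups, and the log2 fold change of 0.05 had a 95% interval from -0.05 to 0.16 (SE 0.045, limma adjusted p = 0.537).

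Hsd17b6 encodes a short-chain dehydrogenase known to act on androstanediol and retinol (ENSMUSG00000025396.6, chr10:127427997-127437734, minus strand). Values were 149, 120 and 200 in control and 168, 205 and 227 in L-RalyKO. Control mouse 3 reached the L-RalyKO range while the other controls lay below it. The log2 fold change of 0.37 was the largest of the 10 but also the least precise (SE 0.17, 95% interval -0.02 to 0.76, limma adjusted p = 0.242). Without control mouse 3 it was 0.56 with a limma adjusted p of 0.043, and then 1 of the 10 was called, against 7.02% of all genes. Without control mouse 2 it was 0.20. Of its 50-base words 14.8% are shared with Rdh9, a retinol dehydrogenase gene on the same chromosome. In all, 6 genes share such words with Hsd17b6.

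The transcripts whose centred log2 profile over the 6 mice was most like that of Hsd17b6 were Nedd4l, Dact1, Hspa2, Fmo2 and Gm4070. Their root mean square differences from it were 0.0864, 0.0907, 0.111, 0.126 and 0.127. Their own log2 fold changes were between 0.30 and 0.38, and none was called, with limma adjusted p values between 0.155 and 0.492. Being chosen for this likeness, they share with Hsd17b6 a high control mouse 3 and a similar fold change by construction.

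Hsd17b11 and Hsd17b13 encode dehydrogenases of lipid droplets and are neighbours on the minus strand of chromosome 5, 12351 bp apart. Hsd17b11 (ENSMUSG00000029311.10, chr5:104418781-104450938) was measured at 211, 201 and 219 in control and at 204, 224 and 238 in L-RalyKO. Hsd17b13 (ENSMUSG00000034528.9, chr5:104384459-104406429) was measured at 289, 312 and 344 in control and at 305, 336 and 340 in L-RalyKO. The groups overlapped for both genes, and for Hsd17b11 L-RalyKO mice 2 and 3 lay above every control. The log2 fold changes were 0.07 (SE 0.064, 95% interval -0.07 to 0.22, limma adjusted p = 0.541) and 0.06 (SE 0.073, 95% interval -0.11 to 0.22, limma adjusted p = 0.703). With a mouse left out, the value of Hsd17b11 was between 0.02 (without L-RalyKO mouse 3) and 0.13 (without L-RalyKO mouse 1). The value of Hsd17b13 turned to -0.00416 without control mouse 1, so its direction is not set by these data.

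**Figure D3:**
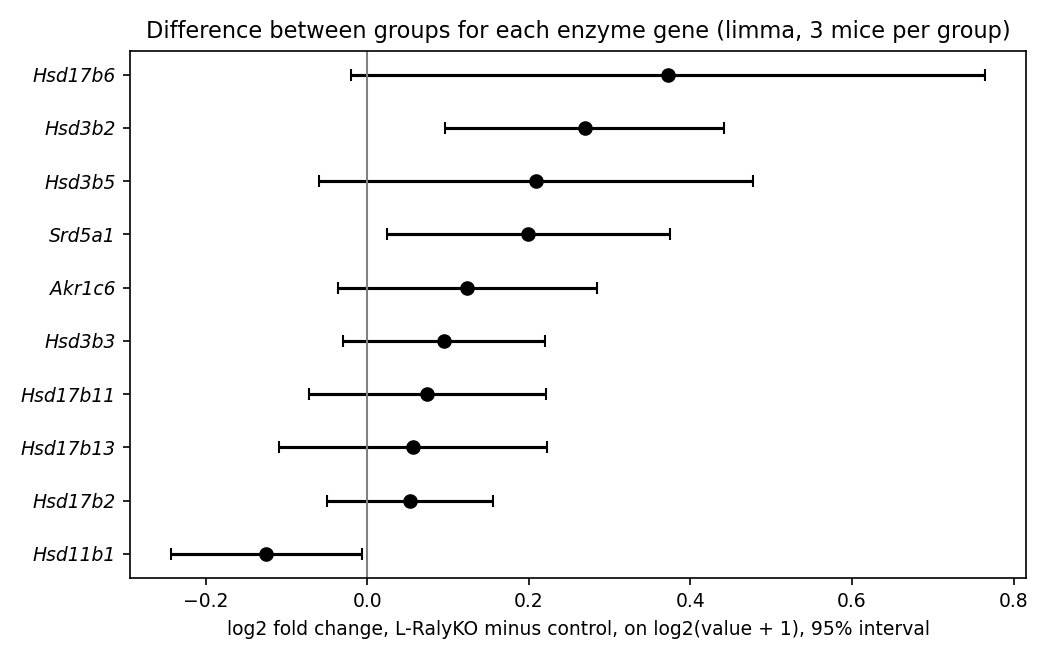
Log2 fold change of each enzyme transcript, L-RalyKO minus control, on log2(value + 1), with the 95% interval from limma (3 mice per group). Only the intervals of Hsd3b2, Srd5a1 and Hsd11b1 leave out 0, and these are not adjusted for the number of genes tested.

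**Figure D4:**
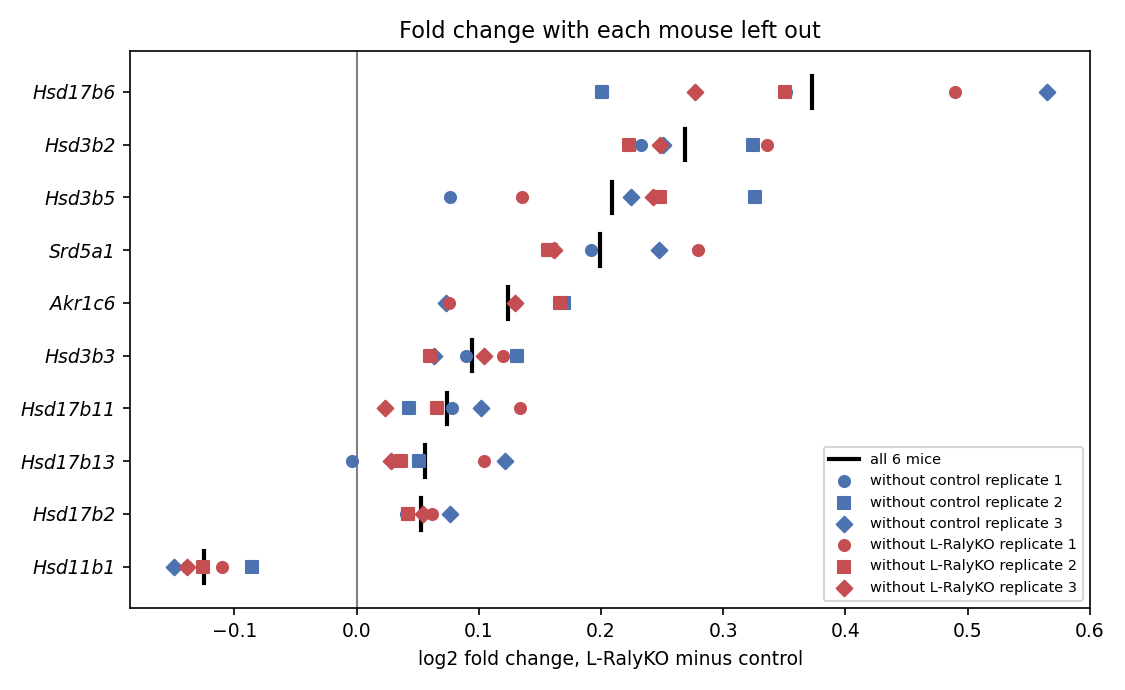
Log2 fold change of each enzyme transcript, L-RalyKO minus control (horizontal axis), with all 6 mice (black line) and with each mouse left out (blue, a control mouse left out; red, an L-RalyKO mouse left out). Hsd17b6 has the widest range, from 0.20 to 0.56, and Hsd17b13 crosses 0 without control mouse 1.

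Ratios within a liver compare enzymes with a counterpart. Hsd17b2 was set against Hsd17b12, which encodes a reductase of 3-ketoacyl-CoA and estrone. This log2 ratio was -1.16 ± 0.161 in control and -0.88 ± 0.0183 in L-RalyKO (SD, n = 3 each), and the groups did not overlap. The difference of 0.28 had an SE of 0.094 and an exact permutation p of 0.1, or 0.5 after adjustment over the 5 ratios. Hsd17b12 itself was 190 ± 17.9 in control and 162 ± 2.22 in L-RalyKO (log2 fold change -0.23, adjusted p 0.0815 in limma and 0.0285 in DESeq2). Hsd11b1 against H6pd, whose product supplies NADPH to the Hsd11b1 enzyme, differed by -0.12 (SE 0.060, exact permutation p = 0.2). H6pd had a log2 fold change of -0.01 (limma adjusted p = 0.95), and its sign changed when single mice were left out.

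The other ratios differed by less. Srd5a1 against Akr1d1, the steroid 5-beta reductase, differed by -0.01 (SE 0.16, exact permutation p = 1). Akr1d1 alone had a log2 fold change of 0.21 (limma adjusted p = 0.117). Hsd3b5 against Hsd3b3 differed by 0.11 (SE 0.16, exact permutation p = 0.6) and Hsd17b13 against Hsd17b11 by -0.02 (SE 0.068, exact permutation p = 0.8). None of these 3 ratios kept its sign when single mice were left out.

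The promoters were searched for CCAAT, the letters bound by NFY, the factor with which the study connects RALY. CCAAT was found on either strand in the 250 bases before a start site of 6 of the 9 enzymes matched to a RefSeq window (all but Hsd17b2), namely Hsd3b3, Hsd11b1, Hsd17b6, Hsd17b11, Srd5a1 and Akr1c6. Of 32851 RefSeq windows of that length, 33.8% hold it. A STAT-type TTCNNNGAA was found in 0 of the 9 (7.02% of windows), the steroid receptor hexamer TGTTCT in Hsd3b2 (16.1% of windows) and TATAAA in Akr1c6 (12.4% of windows). No match overlapped another, and a match describes letters and not a bound site. The last 150 bases before the start are shown for the 3 enzymes with an unadjusted limma p under 0.05, Hsd3b2, Srd5a1 and Hsd11b1, and for Hsd17b6 with the largest fold change. All lie on the minus strand and have NCBIM37 positions, and capitals mark CCAAT or its reverse complement, which the window of Hsd3b2 lacks.
Hsd3b2, chr3:98528467-98528616: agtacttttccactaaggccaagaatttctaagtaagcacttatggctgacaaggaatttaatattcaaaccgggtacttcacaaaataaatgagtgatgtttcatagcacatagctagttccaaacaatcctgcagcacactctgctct
Hsd11b1, chr1:195068555-195068704: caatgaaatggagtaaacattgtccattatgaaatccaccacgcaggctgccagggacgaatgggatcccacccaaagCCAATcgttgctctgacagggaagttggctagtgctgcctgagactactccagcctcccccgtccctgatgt
Srd5a1, chr13:69750342-69750491: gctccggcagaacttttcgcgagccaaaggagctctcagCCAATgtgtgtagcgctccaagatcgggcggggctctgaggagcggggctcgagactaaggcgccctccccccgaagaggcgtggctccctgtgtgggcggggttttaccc
Hsd17b6, chr10:127444668-127444817: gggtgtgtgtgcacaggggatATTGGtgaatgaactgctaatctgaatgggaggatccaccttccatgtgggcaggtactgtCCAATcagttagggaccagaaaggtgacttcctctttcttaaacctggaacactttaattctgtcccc
The log2 fold changes were 0.27 for Hsd3b2, without these letters, and -0.12, 0.20 and 0.37 for Hsd11b1, Srd5a1 and Hsd17b6, which hold them. The RefSeq start of Hsd11b1 lies 21694 bp downstream of the GENCODE start, and that of Hsd17b6 6933 bp upstream of it.

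Related enzymes outside the 10 did not pass the limma test either, while DESeq2 called 3 of them. Of 9 other hydroxysteroid dehydrogenase genes tested, limma and edgeR called 0, DESeq2 called Hsd17b12 (adjusted p = 0.0285) and Hsd3b7, and 4 had an unadjusted limma p under 0.05, 3 of them lower in L-RalyKO, and the median log2 fold change was -0.14. Of 8 other steroid reductase and aldo-keto reductase genes, limma and edgeR called 0, DESeq2 called Akr1c14, and 4 had an unadjusted limma p under 0.05, all higher in L-RalyKO, with a median of 0.14. Among all genes tested limma called 6.55%, edgeR 6.31% and DESeq2 9.4%, and 22.7% had an unadjusted limma p under 0.05. Akr1c14, a 3-alpha hydroxysteroid dehydrogenase of the same cluster as Akr1c6, was 445 ± 35.3 in control and 545 ± 49.7 in L-RalyKO (adjusted p 0.0738 in limma, 0.013 in DESeq2, and 0.0489 in limma without L-RalyKO mouse 2). Of 7 enzymes that make steroids in gonad and adrenal, 4 were at 0 reads in every mouse, and the summed value of the list was at most 16.6. Cyp17a1, with 216 to 352 reads per mouse, was 8.33 ± 1.66 in control and 6.81 ± 0.752 in L-RalyKO (log2 fold change -0.24, limma adjusted p = 0.341). None of the 3 tested was called by limma, edgeR or DESeq2, nor did any have an unadjusted limma p under 0.05.

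A list of steroid and sterol hydroxylation and conjugation genes held called ones, not all of them in hormone clearance. Of 11 hydroxylation and conjugation genes tested, 3 rose and 1 fell (36.4% called, beside 6.55% of all genes tested), with a median log2 fold change of 0.26. Ugt2b1, a glucuronosyltransferase, rose from 537 ± 14.0 in control to 817 ± 72.6 in L-RalyKO (log2 fold change 0.60, limma adjusted p = 0.00254) and was called in each of 6 fits with 1 mouse left out. Cyp7b1, the oxysterol 7-alpha hydroxylase, rose by 0.43 on the log2 scale (limma adjusted p = 0.0377), and Ugt2b5 by 0.27 (limma adjusted p = 0.0354). Cyp46a1, a cholesterol 24-hydroxylase, fell from 6.84 ± 1.73 to 3.06 ± 0.580 (log2 fold change -0.93, limma adjusted p = 0.0185). With 1 mouse left out the adjusted p reached 0.12 for Cyp7b1, 0.114 for Ugt2b5 and 0.0597 for Cyp46a1, and the call was lost in 4, 6 and 3 of the 6 fits.

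Of 8 genes for cofactor supply 1 rose (12.5% called, beside 6.55% of all genes) and the median was 0.01. This was Por, which passes electrons from NADPH to cytochrome P450 enzymes, from 616 ± 64.2 to 929 ± 48.5 (log2 fold change 0.60, limma adjusted p = 0.00531). Of 13 steroid receptor, chaperone and carrier genes, 2 rose and 2 fell (30.8% called), with a median of 0.00. Fkbp5, a glucocorticoid receptor co-chaperone and known glucocorticoid target, was 67.2, 53.1 and 119 in control and 233, 194 and 216 in L-RalyKO. All L-RalyKO mice were above all controls (log2 fold change 1.5, limma adjusted p = 0.0105). Serpina6, which encodes corticosteroid-binding globulin, rose from 178 ± 19.8 to 226 ± 12.2 (log2 fold change 0.35, limma adjusted p = 0.0411), but the call was kept in only 1 of the 6 fits with a mouse left out. Nr3c2, the mineralocorticoid receptor, fell from 15.9 ± 2.79 to 7.93 ± 0.662 (log2 fold change -0.91, limma adjusted p = 0.00523).

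**Figure D5:**
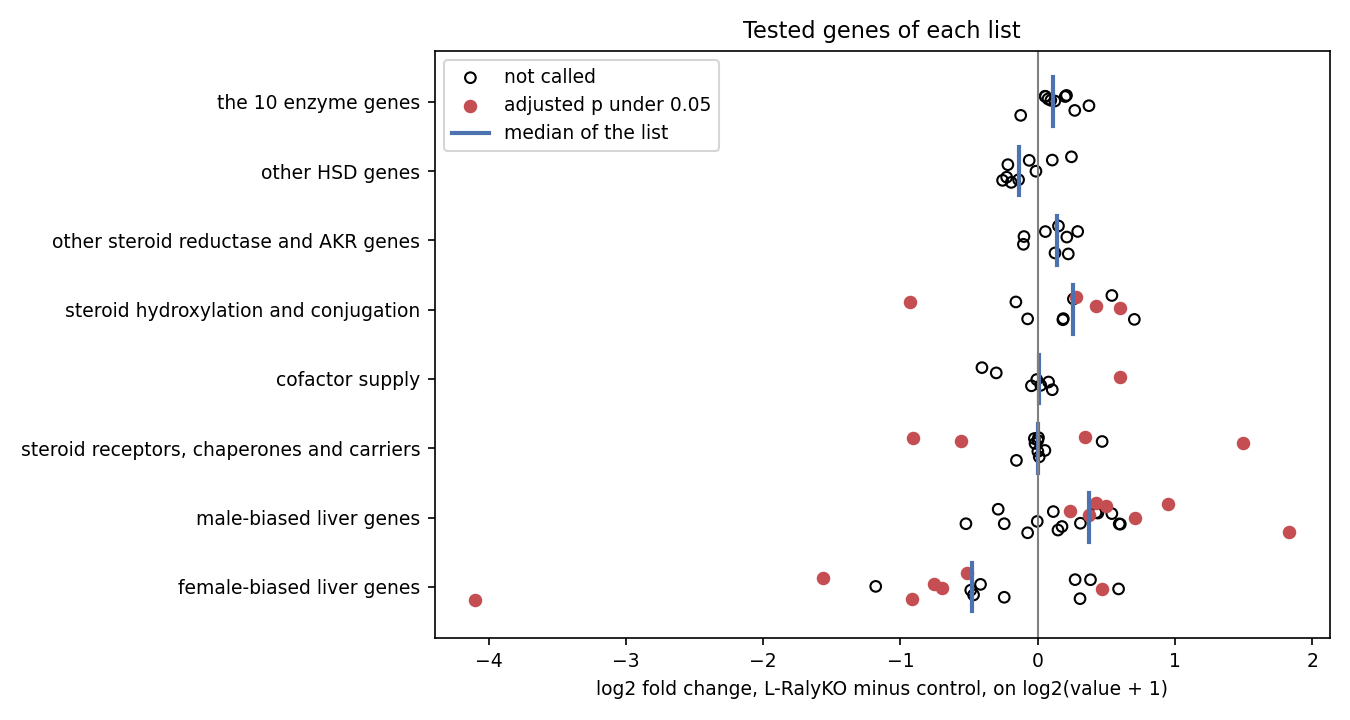
Log2 fold change of every tested gene in 8 lists (horizontal axis, L-RalyKO minus control on log2(value + 1)), with filled points at a limma adjusted p under 0.05 and a bar at each list's median. No point of the 10 enzyme genes is filled, while Cyp2b9 at -4.10 and Selenbp2 at 1.83 lie farthest out in the sex-biased lists.

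Sex-biased liver genes were called in both the male-biased and the female-biased list. Of 21 male-biased genes tested 7 rose and 0 fell (33.3% called, beside 6.55% of all genes), with a median log2 fold change of 0.37. Selenbp2 rose by 1.83, Serpina1e by 0.95 and Gstp1 by 0.71 on the log2 scale (limma adjusted p 0.00216, 0.0464 and 0.00196). Of 16 female-biased genes 1 rose and 6 fell (43.8% called), with a median of -0.48. Cyp2b9 was at 65.2, 48.9 and 36.3 in control and at 0.873, 2.15 and 3.18 in L-RalyKO (log2 fold change -4.10, limma adjusted p = 0.000406). Cyp2b13 was at 2.12, 1.26 and 2.97 in control and at 0, 0.0290 and 0.0526 in L-RalyKO, where the size of the log2 fold change depends on the pseudocount (-1.56 with 1 and -4.07 with 0.1, limma adjusted p 0.00363 and 0.00122). Cyp2a22 fell by 0.91 on the log2 scale, whereas Lifr rose by 0.47 (limma adjusted p 0.00174 and 0.0445). Serpina1e and Lifr each kept their call in 1 of the 6 fits with a mouse left out, with adjusted p up to 0.124 and 0.117, and edgeR called neither. Hsd3b5, named above as male-biased in liver, had 0.21 and was not called.

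Of 15 genes of the growth hormone axis and its regulators, 4 rose and 1 fell (33.3% called, beside 6.55% of all genes). The median was 0.26, and the lowest log2 fold change, -1.62, was that of a gene not called by limma. With edgeR 6 of the 15 were called, against 6.31% of all genes, and with DESeq2 7, against 9.4%. Both tools called Bcl6. Cish and Socs3, inhibitors of cytokine signalling, rose by 2.18 and 1.51 and the transcription factor Foxa2 by 0.86 on the log2 scale (limma adjusted p 0.00981, 0.0214 and 0.0126). Stat5b, the signal transducer of growth hormone, fell by 0.35 (limma adjusted p = 0.0346). With a mouse left out, the adjusted p reached 0.0776 for Socs3, 0.0501 for Foxa2 and 0.11 for Stat5b. Of the Y-linked genes, Eif2s3y fell by 0.22 on the log2 scale (limma adjusted p = 0.0359), a call lost in all 6 fits with a mouse left out, while Ddx3y, Kdm5d and Uty were not called.

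Genes of lipid droplets and of the liver zones were called in shares of 5.26% (lipid droplet), 26.7% (pericentral) and 6.67% (periportal), beside 6.55% of all genes tested. These shares are those of limma. At an unadjusted limma p under 0.05 the shares were 52.6%, 46.7% and 60%, beside 22.7%. DESeq2 called 4 of 19, 6 of 15 and 4 of 15 genes, beside 9.4% of all genes. With edgeR the counts were 1, 2 and 1, beside 6.31%. Of 19 lipid droplet genes, which include surface proteins of the organelle that holds Hsd17b11 and Hsd17b13, 1 fell, with a median of 0.02. It was Plin4, a perilipin, with a log2 fold change of -0.94 (limma adjusted p = 0.012). Among 15 pericentral genes Cyp1a2 and Cyp27a1 rose by 0.48 and 0.33 and Tbx3 and Lgr5 fell by 0.62 and 0.53 on the log2 scale (limma adjusted p 0.0441, 0.019, 0.00429 and 0.0441). Only Tbx3 of these 4 was called in all 6 fits with a mouse left out, and the adjusted p of the others reached 0.141, 0.0627 and 0.123. Among 15 periportal genes Pck1, the gluconeogenic enzyme, rose by 0.78 (limma adjusted p = 0.00312). The medians of the pericentral and periportal lists were 0.05 and 0.23.

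Markers of other cells were measured beside the enzymes. Limma called 0 of 10 hepatocyte, 0 of 8 Kupffer cell, 0 of 8 endothelial, 0 of 8 stellate cell, 0 of 3 cholangiocyte and 0 of 1 lymphocyte markers tested. Their counts at an unadjusted p under 0.05 were 3, 0, 0, 1, 1 and 0. With edgeR 0 of these markers were called, and DESeq2 called the hepatocyte genes Ahsg, Apoa1 and Trf and the cholangiocyte gene Sox9. Of all genes tested limma called 6.55%, edgeR 6.31% and DESeq2 9.4%, and 22.7% had such an unadjusted limma p. Of 4 adrenal and gonad markers tested, 0 were called by limma, edgeR or DESeq2 and 1 had an unadjusted p under 0.05, and 3 of the 9 listed had 0 reads. Summed macrophage markers were between 160 and 239 in control and between 165 and 213 in L-RalyKO, and summed endothelial markers between 260 and 269 and between 226 and 288. Of 4 adipocyte markers tested 2 fell, Cfd with a log2 fold change of -2.10 and Car3 with -0.77 (limma adjusted p 0.0318 and 0.0189). Car3 is also made by hepatocytes, and the defining adipocyte genes Adipoq, Lep, Retn and Plin1 were under the filter. The summed adipocyte list was between 2518 and 3788 in control and between 1677 and 2097 in L-RalyKO, almost entirely from Car3. Without Car3 the other 7 genes summed to between 15.4 and 59.5 in control and between 10.7 and 12.2 in L-RalyKO. With a mouse left out the adjusted p of Cfd and Car3 reached 0.101 and 0.0642. The part of these cells in the values of the enzymes was not tested.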

How the data were processed

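Only the liver RNA-seq, with 3 mice per group, was used, and the other assays of the study were not analysed here. Libraries were made with a stranded kit, and the methods give alignment with TopHat v2.0.2 to mm9 and FPKM from Cufflinks 2.0.2 and Cuffdiff. The deposited values are a signal scaled by the authors, reads per gene divided by effective library size, and how reads were counted is not given in the sources used here. Every value was a whole multiple of 1 read (tolerance 0.001, 100% in each library), and the scaling equalled TMM factors recomputed with edgeR. The design had assumed counts, and limma on log2(value + 1) was used as it foresaw for other units. A column was assigned to a mouse through the virus and number in its name.

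L-RalyKO was tested against control using limma 3.58.1 (R 4.3.3) with its trend option, on genes whose mean was at least 1, with Benjamini-Hochberg adjustment over all of them. Fold changes on this scale understate low genes. Alternatives were edgeR 4.0.16, DESeq2 1.42.0 and voom on the recovered reads, other scalings, pseudocount, filters, a replicate block and leaving out each mouse. Scripts were tested on simulated data. Named were the 10 enzymes, Raly, in each of 21 other lists the 3 largest called changes in each direction and at most 1 gene where none was called, the ratio partners, the sex check and the 5 profiles nearest Hsd17b6. A gene that this rule selects is not reported here. The enzymes and lists were chosen with earlier results of these data known. Coordinates and lengths come from GENCODE vM1 on NCBIM37, and upstream sequences from RefSeq, where 9 of the 10 enzymes were matched (all but Hsd17b2). The recovered depth makes counting error small, and 3 mice per group limit precision.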

Additional observations from a re-analysis of the deposited data

How the results depend on the processing

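The fold changes of 9 of the 10 enzymes kept their sign under each of 16 alternatives, and that of Hsd17b13 turned to -0.00416 without control mouse 1 (range with a mouse left out -0.00416 to 0.12). Hsd3b2 passed the threshold with DESeq2 (log2 fold change 0.27, adjusted p = 0.0378) and with the replicate block in limma (0.27, adjusted p = 0.0432), and its adjusted p was between 0.0378 and 0.205 over the alternatives. Hsd17b6 passed without control mouse 3 (0.56, limma adjusted p = 0.043) and was between 0.20 and 0.56 with a mouse left out, with adjusted p from 0.043 to 0.501 over the alternatives. The cause of these changes was not tested. Scaling by total counts moved the log2 fold changes of Hsd17b2 from 0.05 to 0.02 and of Hsd17b13 from 0.06 to 0.02. It moved those of Hsd17b11 from 0.07 to 0.04 and of Hsd3b3 from 0.09 to 0.06. Same-numbered mice are different animals, and their deviations correlated by 0.0664, -0.0238 and 0.0196. With 3 mice per group these values cannot exclude that mice of the same number share a litter or batch. The main fit assumed no pairing, and the block gave 704 calls.

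The count of called genes, 758, was 484 among all genes with a read, where more genes enter the adjustment, and between 332 and 813 with a mouse left out (369 without control mouse 1, which stood apart from the other controls). Of 29 called genes selected from the lists, 13 were called in each alternative that gave them an adjusted p. H6pd was between -0.0345 and 0.0282 with a mouse left out, positive without control mouse 1, control mouse 2 or L-RalyKO mouse 3 (0.00471, 0.000745 and 0.0282), and Ddx3y between -0.0109 (without control mouse 1) and 0.125. With a mouse left out the difference in log2 ratio was between -0.0819 and 0.0197 for Hsd17b13 to Hsd17b11 (positive values 0.00802, 0.0197 and 0.00437), between -0.0125 and 0.195 for Hsd3b5 to Hsd3b3 (negative at -0.0125) and between -0.113 and 0.108 for Srd5a1 to Akr1d1 (positive at 0.0369, 0.0401 and 0.108). Depth was not limiting for the 10 enzymes, with at least 1044 reads per mouse.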
